A study of Homo sapiens with 54 samples.

Results

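The abundance of the RNA of *MYC* and of 39 genes that build ribosomes was followed in 54 RNA-seq libraries in which the paralogous splicing regulators *TRA2A* and *TRA2B* had been depleted. The 40 genes were listed by name, and all 40 were found among the 55906 gene rows of each of 4 tables, 1 per cell line. They lie on 17 chromosomes, with at most 8 on any one. A gene was tested in a line when it reached 1 TPM, a length-normalised share of all RNA, in 4 or more of its libraries. All 40 did so in every line. For A549, NCI-H23, LN229 and LN319, in that order, the number of genes tested was 16405, 16293, 18490 and 19303.

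A549 and NCI-H23 are lung cancer lines that stably carried Zim3-dCas9, a nuclease-dead Cas9 fused to a repressor domain. They received guides against control loci (Control KD), *TRA2A* (*TRA2A* KD), *TRA2B* (*TRA2B* KD) or both genes (*TRA2A/B* DKD) and were collected 5 days after transduction. LN229 and LN319 are glioma lines that received Cas9 together with a guide and were collected 7 days after transduction. Each glioma line carried either luciferase (Luc), with a Control KO, *TRA2A* KO or *TRA2B* KO, or a *TRA2B* cDNA (TRA2B-OE), with a Control KO or *TRA2A* KO. The study treated NCI-H23 and LN319 as *TRA2A*-dependent and A549 and LN229 as *TRA2A*-independent. Every group held 3 libraries, and nothing in the labels says whether they came from separate cultures, so the p-values measure the spread between these libraries, which may be technical. No cloning step is given in the sources used here, so a KO group can hold unedited cells. RNA per cell and number of cells cannot be told apart in bulk libraries.

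The targeted RNAs moved with their labels in the lung lines, where *TRA2A* in the 2 groups that targeted it was at 6.54 to 20.5% of its control mean and *TRA2B* at 9.68 to 25.2%. After KO in the Luc cells *TRA2A* RNA was at 62.9% of control in LN229 and at 33.2% in LN319, and *TRA2B* RNA at 66.0% and 35.1%. A frameshift need not remove the RNA, so these levels do not measure the protein. The *TRA2B* cDNA brought *TRA2B* RNA, cDNA and endogenous together, to 374% (LN229) and 873% (LN319) of the control. Among TRA2B-OE cells of LN229, *TRA2A* RNA was 69.9 ± 5.20 TPM after *TRA2A* KO and 80.2 ± 4.85 TPM in the control (mean ± SD, n = 3). The epithelial keratin *KRT8* had a control mean of 2779 TPM for A549 and of 771.9 TPM for NCI-H23, although *EPCAM* was at 2.76 and 1.28 TPM. In LN229 and LN319 the neural factor *SOX2* had control means of 81.9 and 401.7 TPM, whereas the astrocyte filament *GFAP* was at 2.84 and 2.13 TPM and *OLIG2* was at 0.0101 TPM in LN319. Other markers did not follow the tissue of the line. The epithelial marker *CDH1* had its highest control mean in LN319 (122.7 TPM), with 21.7 for A549, 1.94 for NCI-H23 and 0.226 for LN229. LN319 also held *KRT8* at 120.4 TPM. The glial marker *S100B* was at 455.1 TPM for LN229 but at 0.348 TPM for LN319. TPM carries no sequencing depth. Listed TPM summed to between 928908 and 964610 per library, and mitochondrially encoded RNA took 6.02 to 33.4% of it. Replicate 3 of the A549 Control KD stood apart, with the lowest agreement with other libraries of its line (median correlation over genes of 0.837) and a scaling factor of 1.202, so the A549 counts are also given without it. Within a lung line the single KDs and the DKD share the Control KD libraries, and within a glioma line *TRA2A* KO, *TRA2B* KO and TRA2B-OE share the Luc Control KO, so values of these comparisons stand side by side only.

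Ribosomes are made in the nucleolus. RNA polymerase I transcribes a long precursor of the ribosomal RNAs, box C/D and box H/ACA small nucleolar ribonucleoproteins (snoRNPs) methylate and pseudouridylate it, and the small-subunit processome and the large-subunit assembly factors cut, fold and package it with ribosomal proteins before the particles leave for the cytoplasm. MYC is a transcription factor that, with its partner MAX, binds the E-box sequence CACGTG, and genes of ribosome biogenesis are among its best known targets in dividing cells.

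That E-box stands close to the transcription start of many of the 40 genes. RefSeq promoters of 300 bases (250 before to 50 after the start, GRCh38.p14) were given for 33 members, of which 15 (45.5%) held CACGTG, against 2396 of 27305 promoters (8.77%) of all genes with an entry. CACGTG is its own reverse complement, so both strands were searched at once. Among tested genes with an entry the share was 12.5 to 12.7%, in 98 other listed ribosome biogenesis genes it was 31.4% of the 86 with an entry, and in the cytosolic ribosomal protein genes 6.56% of 61. Of the 16 matches in member promoters, 15 began within 40 bases of the start and 11 began after it. *MYC*, *RRS1*, *BOP1*, *NOLC1*, *NOP58*, *RRP12* and *DDX18* had no entry. A match of letters is not evidence of binding, and none was measured. Windows of 30 bases from 8 members are shown because they come from 5 steps of the pathway and carry the same 6 letters, given here in capitals. Each window was cut around its match, so the capitals line up by construction. The matches of these 8 members began from -31 (*DDX21*) to 29 (*BYSL*) bases from the start:
FBL, chr19:39846356-39846385, - strand: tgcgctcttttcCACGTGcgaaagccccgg
GNL3, chr3:52686026-52686055, + strand: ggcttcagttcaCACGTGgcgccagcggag
PES1, chr22:30591880-30591909, - strand: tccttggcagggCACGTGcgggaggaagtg
WDR43, chr2:28894658-28894687, + strand: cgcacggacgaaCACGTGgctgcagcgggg
UTP20, chr12:101280083-101280112, + strand: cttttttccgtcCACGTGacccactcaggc
RRP9, chr3:51941892-51941921, - strand: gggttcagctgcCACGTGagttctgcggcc
BYSL, chr6:41921515-41921544, + strand: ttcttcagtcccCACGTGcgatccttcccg
DDX21, chr10:68956604-68956633, + strand: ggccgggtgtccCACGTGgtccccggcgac

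In control cells the 40 genes were expressed well above the typical gene. The median of the 40 control means was 66.8, 86.6, 61.8 and 49.1 TPM for A549, NCI-H23, LN229 and LN319, and the median of all tested genes was 12.2, 9.84, 11.8 and 11.4 TPM. *NPM1*, the abundant nucleolar histone chaperone nucleophosmin, was the highest member in every line, at 1322, 1532, 850.4 and 568.8 TPM. *POLR1C*, a subunit shared by RNA polymerases I and III, was the lowest in A549 (9.38 TPM) and NCI-H23 (16.9 TPM), the helicase gene *DDX10* in LN229 (5.35 TPM) and *UTP20*, a scaffold of the processome, in LN319 (12.6 TPM). *MYC* ranked 19, 18, 37 and 20 of the 40 in A549, NCI-H23, LN229 and LN319. The lines came in separate tables and were not tested against each other.

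*MYC* RNA rose after DKD in A549, and in NCI-H23 it fell after scaling only. In A549 it was 73.1, 83.6 and 60.96 TPM in the Control KD libraries, 76.7, 86.7 and 78.5 TPM after *TRA2A* KD, 72.5, 69.9 and 61.98 TPM after *TRA2B* KD and 147.7, 159.0 and 166.4 TPM after DKD. All 3 DKD libraries were above every other A549 library, and the log2 fold change against control was 1.05 ± 0.15 (SE, adjusted p = 0.000495), or 0.86 without Control KD replicate 3, the lowest control library. The single KDs gave 0.31 ± 0.15 (SE, adjusted p = 0.466) and 0.01 ± 0.15 (SE, adjusted p = 0.984). In NCI-H23 the control libraries held 82.1, 103.2 and 88.9 TPM, *TRA2A* KD 101.8, 91.1 and 95.6 TPM, *TRA2B* KD 117.3, 112.4 and 109.8 TPM and DKD 86.5, 75.6 and 88.6 TPM. DKD and control overlapped as deposited and parted after scaling, where *MYC* fell by 0.28 on the log2 scale (SE 0.06, adjusted p = 0.00416). That call rested on the scaling, since the change was -0.13 with an adjusted p of 0.291 from TPM as deposited and -0.14 with 0.0766 after quantile normalization. *TRA2B* KD libraries of NCI-H23 were all above the control libraries, yet the change of 0.20 ± 0.06 (SE, adjusted p = 0.332) did not pass the test.

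After *TRA2A* KO every library of the glioma lines held more *MYC* than its control libraries, and the test was passed in both backgrounds of LN319 and in TRA2B-OE cells of LN229. LN229, the line with the least *MYC*, held 14.2, 20.7 and 20.7 TPM in the Luc control, 24.6, 29.3 and 28.8 TPM after *TRA2A* KO and 11.02, 13.00 and 11.3 TPM after *TRA2B* KO. The 3 groups did not overlap, but neither KO passed the test against the control, with 0.60 ± 0.17 (SE, adjusted p = 0.0628) and -0.68 ± 0.17 (SE, adjusted p = 0.0739). Without Luc Control KO replicate 1 the *TRA2B* KO passed (-0.87, adjusted p = 0.00488), and with a replicate block both did (adjusted p = 0.0164 and 0.0232). In TRA2B-OE cells *MYC* was 16.7, 23.9 and 22.9 TPM in the control and 34.98, 32.4 and 37.6 TPM after *TRA2A* KO, a rise of 0.71 ± 0.17 (SE, adjusted p = 0.0281) that was lost (adjusted p = 0.0888) without TRA2B-OE Control KO replicate 1, the lowest library of its group, and without any of the 3 KO libraries (adjusted p from 0.0577 to 0.0989). LN319 held 54.6, 47.6 and 49.9 TPM in the Luc control, 75.7, 63.4 and 64.1 TPM after *TRA2A* KO and 63.8, 61.1 and 61.3 TPM after *TRA2B* KO. Both KO groups were above the control in every library, and the changes were 0.45 ± 0.07 (SE, adjusted p = 0.00112) and 0.19 ± 0.07 (SE, adjusted p = 0.0417). The smaller of these was lost without Luc Control KO replicate 2 (adjusted p = 0.168) or 3 (0.0844), and without *TRA2B* KO replicate 1 (0.129) or 2 (0.0578). In TRA2B-OE cells of LN319 the control held 49.9, 48.1 and 49.4 TPM and the *TRA2A* KO 63.1, 65.6 and 61.7 TPM (0.43 ± 0.07 SE, adjusted p = 0.0107). With only the groups compared, the *TRA2A* KO calls in TRA2B-OE cells were lost in LN319 (adjusted p = 0.0993) and LN229 (0.0835). The *TRA2B* KO call in LN319 was lost there too (0.078). With no filter on low TPM, *TRA2A* KO in TRA2B-OE cells of LN229 (0.0932) and *TRA2B* KO in LN319 (0.218) did not pass. For 3 libraries against 3 an exact permutation test cannot go below p = 0.1, two-sided, so the adjusted p-values come from limma across all genes.

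**Figure D1:**
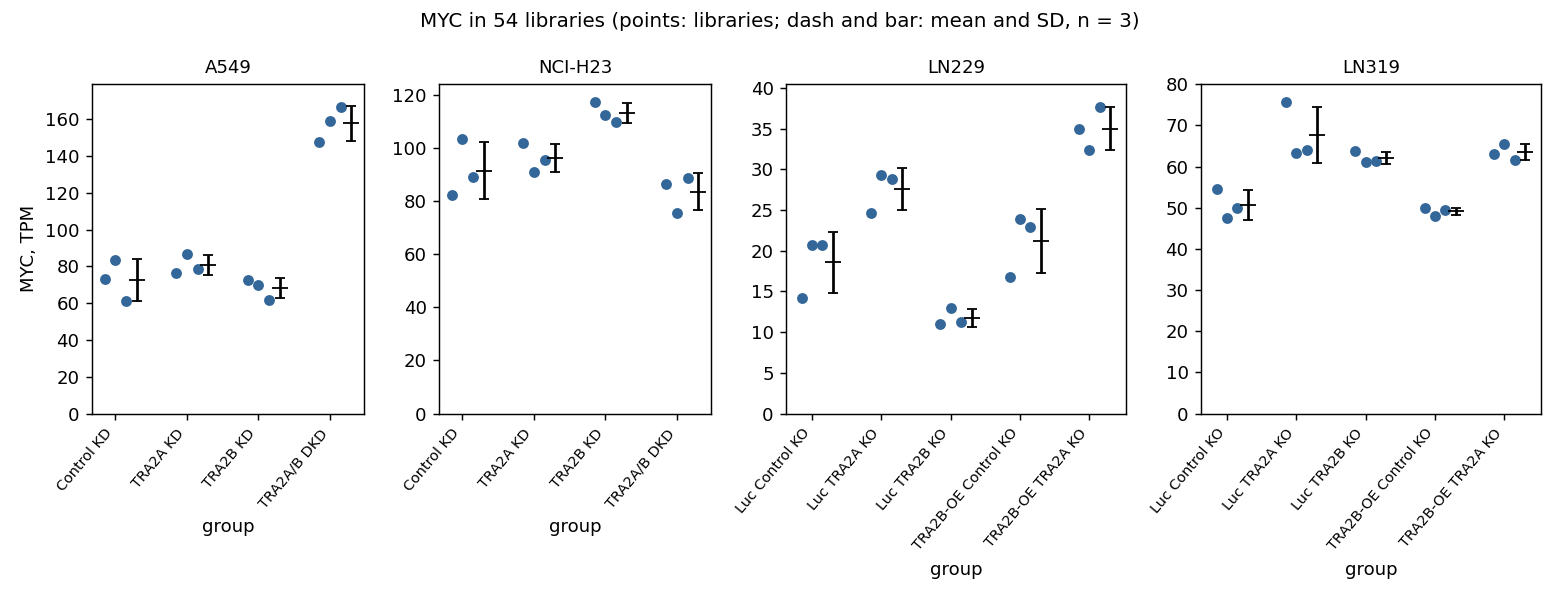
*MYC* in TPM as deposited in each of the 54 libraries, one panel per cell line with its own vertical axis from 0; points are libraries and dashes with bars are group means ± SD (n = 3). The 3 A549 DKD libraries (147.7 to 166.4 TPM) stand above all other A549 libraries, and no LN229 library exceeds 37.6 TPM.

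In the plot of *MYC* by library the A549 Control KD libraries run from 61.0 to 83.6 TPM, and in both control groups of LN229 replicate 1 lies below the other two. Fold changes of all 40 genes in all 14 comparisons with a control are drawn as a heat map, in which the single KDs of the lung lines hold no call and the calls gather in the DKDs and in LN319. Over these 14 comparisons *BOP1*, *DDX21* and *MYC* were each called in 6, more than any other member, and *WDR12* in none.

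**Figure D2:**
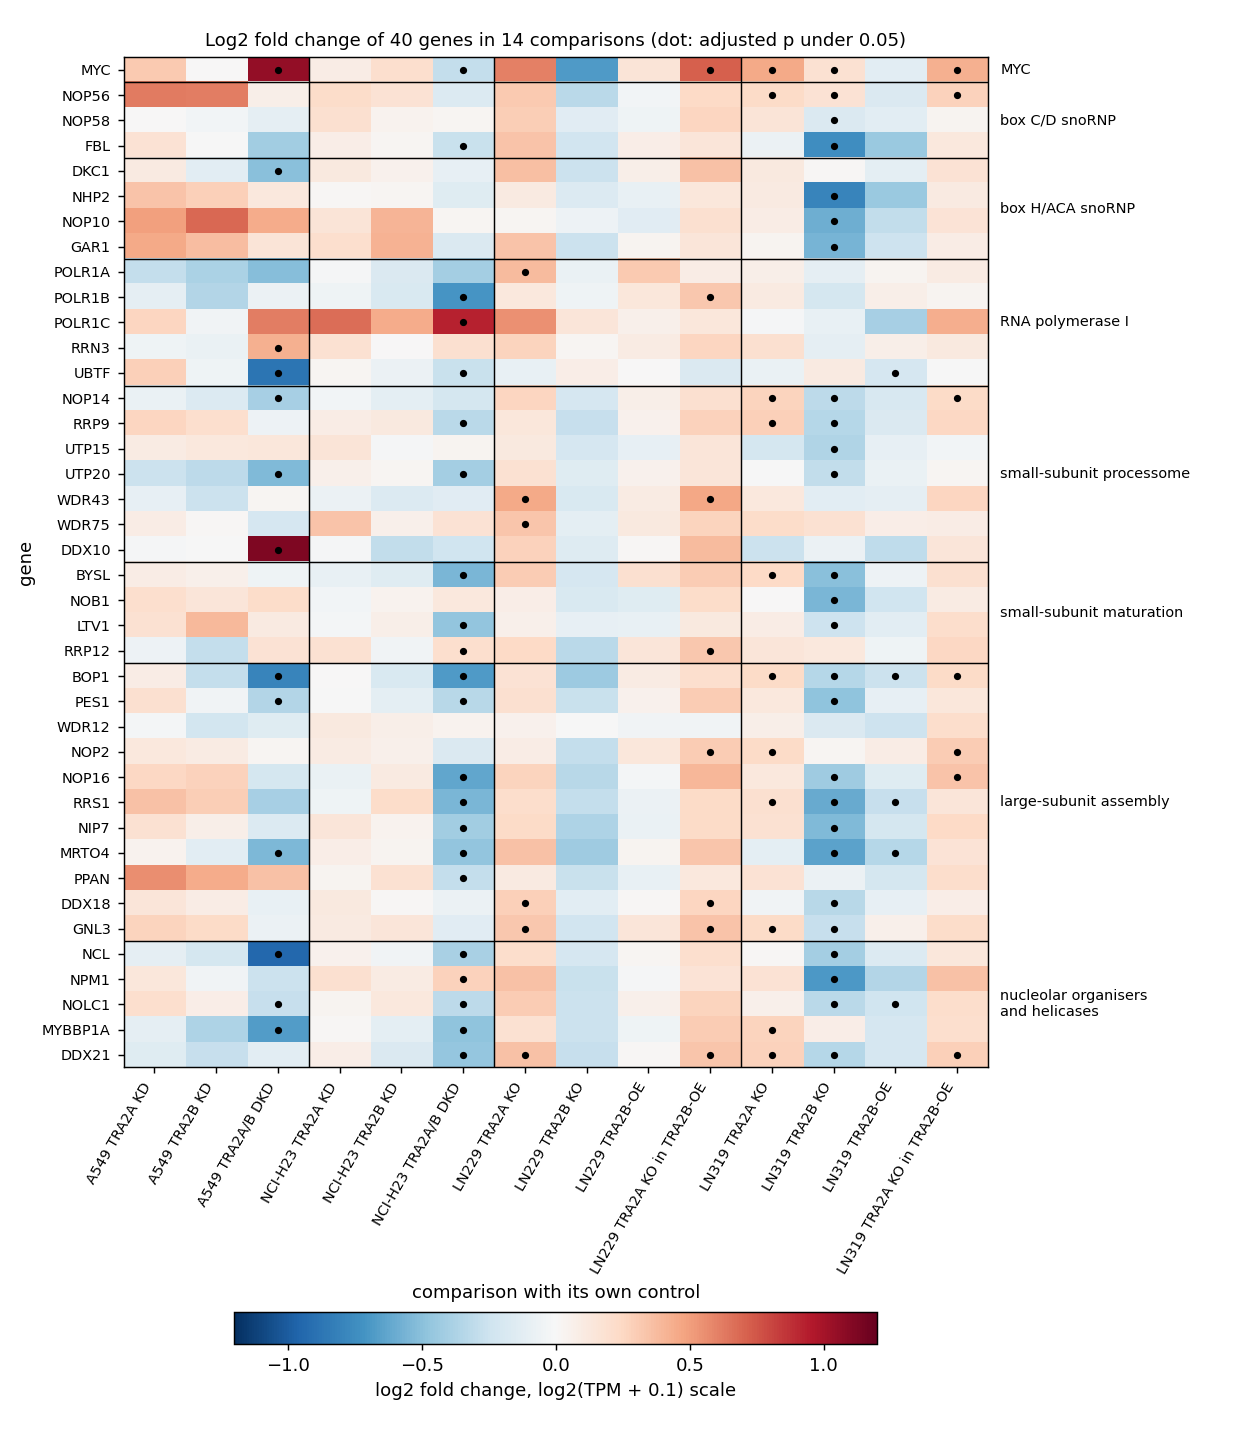
Log2 fold changes of the 40 genes (rows, grouped by role) in the 14 comparisons of a perturbation with its own control (columns), on a colour scale centred at 0; dots mark adjusted p under 0.05. Dots are absent from the single KD columns of A549 and NCI-H23 and most frequent in the LN319 *TRA2B* KO (26 of 40) and NCI-H23 DKD (22 of 40) columns.

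Neither single KD moved a member past the test in the lung lines. After *TRA2A* KD none of the 40 passed in A549, where 0.207% of all tested genes did, or in NCI-H23, where 0.976% did, and after *TRA2B* KD none passed against 0.341% and 0.196%. Estimates after *TRA2A* KD were above 0 for 28 of 40 in A549 and 29 of 40 in NCI-H23, with medians of 0.13 and 0.08 on the log2 scale against 0.03 and 0.00 for all genes. The scaled libraries of 6 members did not overlap with the control in A549 and of 10 members in NCI-H23, where 13.5% and 16% of all genes were without overlap. The smallest adjusted p of a member was 0.328 in A549 and 0.115 in NCI-H23 after *TRA2A* KD, and 0.278 and 0.234 after *TRA2B* KD.

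After DKD in A549 the RNAs of several nucleolar proteins fell while *MYC* rose. *DDX10*, *MYC* and *RRN3*, the factor that recruits RNA polymerase I, rose, and 10 members fell: *NCL*, *UBTF*, *BOP1*, *MYBBP1A*, *MRTO4*, *UTP20*, *DKC1*, *NOP14*, *PES1* and *NOLC1*. The 13 called members are 32.5% of the 40, against 30.6% of all genes (14.3% higher and 16.3% lower), so the members were called about as often as genes in general. The median was -0.10 on the log2 scale for the members and 0.03 for all genes. These medians depended on the scaling. They were -0.02 and 0.11 with TPM as deposited (3 rose and 8 fell) and 0.001 and -0.02 after quantile normalization (4 rose and 8 fell). *DDX10*, a helicase of the small-subunit processome, held 82.1, 85.2 and 112.6 TPM after DKD and 37.9, 37.3 and 45.7 TPM in the control, a change of 1.12 ± 0.12 (SE, adjusted p = 7.85e-05). *NCL*, which encodes nucleolin, held 462.9, 464.7 and 461.1 TPM against 757.2, 743.2 and 1053 TPM and changed by -0.94 ± 0.10 (SE, adjusted p = 4.71e-05). *UBTF*, the factor that keeps ribosomal DNA open for RNA polymerase I, held 52.00, 52.6 and 52.5 TPM against 87.96, 92.8 and 93.2 TPM, or -0.88 ± 0.09 (SE, adjusted p = 4.9e-05). No DKD library of these genes lay within the control range, but genes were picked for description on that condition. *BOP1*, a member with *PES1* and *WDR12* of the PeBoW complex of large-subunit assembly, held 87.5, 84.7 and 78.4 TPM against 129.5, 121.3 and 163.8 TPM (log2 fold change -0.79 ± 0.09 SE, adjusted p = 0.000103, as in the brackets that follow). *MYBBP1A*, a nucleolar regulator of transcription, held 80.3, 85.5 and 81.2 TPM against 97.9, 109.5 and 177.1 TPM (-0.67 ± 0.12 SE, adjusted p = 0.00227). The remaining calls were smaller, from -0.28 for *NOLC1*, a chaperone of snoRNPs, to -0.54 for *MRTO4*, which holds the place of the ribosomal stalk, and 0.42 for *RRN3*. Replicate 3 was the highest control library for *NCL*, *BOP1* and *MYBBP1A*. Without it the count was 20 of 40 rather than 13 (3 higher and 17 lower), and 37.8% of all genes were called rather than 30.6%. *NCL* was then at -0.85 and *MYBBP1A* at -0.48, *UTP20* was at -0.28 rather than -0.53 and *NOP14*, at -0.30, no longer passed. *PES1*, *UTP20* and *NOLC1* also missed the test when certain other single libraries were left out, with adjusted p up to 0.152, 0.0956 and 0.0612.

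By role, the falls in A549 were 3 of 5 nucleolar organisers and helicases, 2 of 7 processome genes, 3 of 11 large-subunit genes, 1 of 4 box H/ACA genes and 1 of 5 RNA polymerase I genes, against 16.3% of all genes, whereas none of the 3 box C/D genes and none of the 4 small-subunit maturation genes passed. In the polymerase I group *UBTF* fell, *RRN3* rose and *POLR1A*, *POLR1B* and *POLR1C* did not pass, with -0.51, -0.07 and 0.61 on the log2 scale. *DKC1*, the pseudouridine synthase of the box H/ACA snoRNP, fell by 0.50 on the log2 scale, while its partner *GAR1* was at 0.15 ± 0.17 (SE, adjusted p = 0.543).

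In NCI-H23 the DKD changed more members, and most of them fell. Of the 40, 19 fell and 3 rose, or 55% called against 43.2% of all genes (20% higher and 23.2% lower), with medians of -0.26 and 0.02. This split depended on the scaling: with TPM as deposited, where the median of all genes was 0.168 rather than 0.02, 7 rose and 12 fell, and after quantile normalization 7 rose and 11 fell. *BOP1* held 100.7, 110.8 and 113.5 TPM after DKD and 155.0, 160.2 and 152.2 TPM in the control (-0.68 ± 0.06 SE, adjusted p = 9.55e-06). *POLR1B*, which encodes the second largest subunit of RNA polymerase I, held 28.1, 24.97 and 32.2 TPM against 38.6, 43.3 and 42.4 TPM (-0.70 ± 0.12 SE, adjusted p = 0.000885). *NOP16*, a large-subunit assembly factor, held 73.99, 62.01 and 75.3 TPM against 82.1, 105.3 and 104.9 TPM (-0.62 ± 0.13 SE, adjusted p = 0.00257). DKD libraries were below the control libraries throughout for these genes as scaled, a condition for being described here. *RRS1*, which helps to place the 5S particle, held 53.3, 47.97 and 55.1 TPM against 62.5, 75.5 and 67.9 TPM (-0.55 ± 0.07 SE, adjusted p = 0.000109), and *BYSL*, a late small-subunit factor, 40.3, 40.1 and 45.6 TPM against 53.7, 58.02 and 53.5 TPM (-0.55 ± 0.06 SE, adjusted p = 3.71e-05). The largest rise was that of *POLR1C*, with 33.5, 39.5 and 32.1 TPM against 12.5, 21.8 and 16.4 TPM (0.92 ± 0.18 SE, adjusted p = 0.00168). *NPM1* rose by 0.28 and *RRP12*, an export factor of the small subunit, by 0.20.

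By count, large-subunit assembly, the largest role group, held the most falls in NCI-H23 (7 of 11: *BOP1*, *PES1*, *NOP16*, *RRS1*, *NIP7*, *MRTO4* and *PPAN*). The share was larger in the nucleolar organisers and helicases, where 4 of 5 (*NCL*, *NOLC1*, *MYBBP1A* and *DDX21*) fell and *NPM1* rose. Of all genes 23.2% fell. *PPAN* overlaps the read-through gene *PPAN-P2RY11*, so its reads may have been split between both. None of the 4 box H/ACA genes passed. Of the 10 members that fell in A549, 8 also fell in NCI-H23 (80.0% of 10 and 42.1% of 19), namely *BOP1*, *MRTO4*, *MYBBP1A*, *NCL*, *NOLC1*, *PES1*, *UBTF* and *UTP20*, while none of the 3 members that rose in one line was among the 3 that rose in the other. How many of all genes fell in both lines was not counted, so the shared falls have no background beside them. Both lines have separate controls, and no difference between the lines was tested. The plot of DKD changes in one line against the other places *BOP1* low in both lines, and *MYC* and *DDX10* above 1 on the log2 scale in A549 but at -0.28 and -0.24 in NCI-H23.

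**Figure D3:**
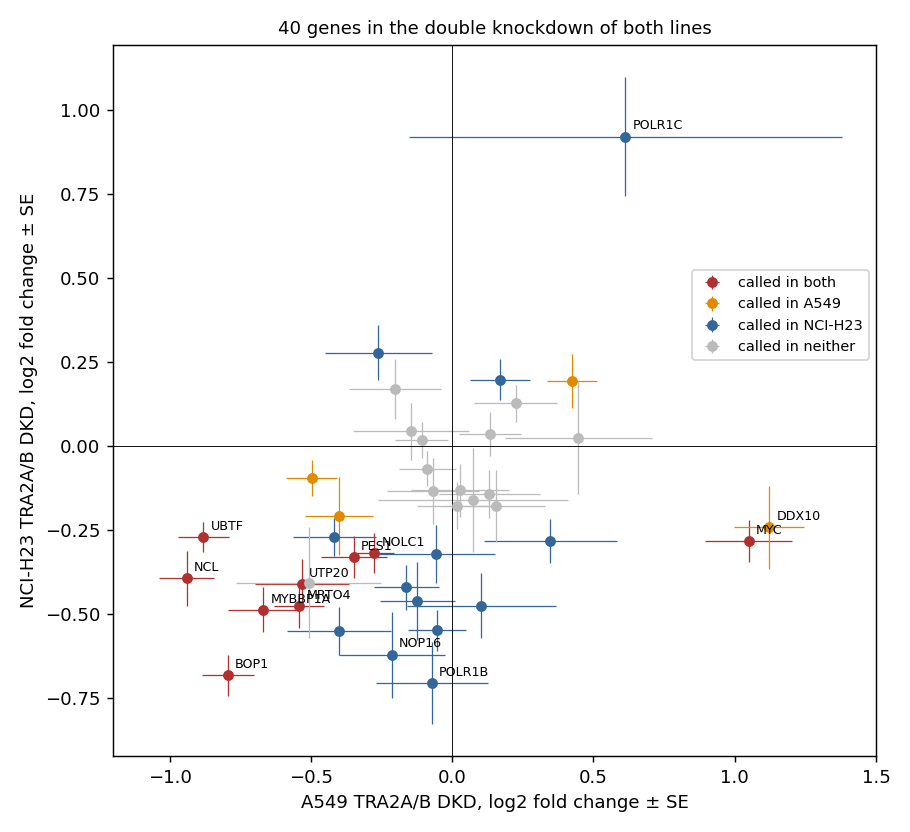
Log2 fold change after *TRA2A/B* DKD of the 40 genes in A549 (horizontal axis) and in NCI-H23 (vertical axis), each against its own Control KD; bars are 1 SE and colours mark in which line a gene was called. The 8 genes called lower in both lines lie in the lower left, and *MYC* lies at 1.05 in A549 and -0.28 in NCI-H23.

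Whether both depletions together did more than the sum of the single ones was asked by subtracting the 2 single KD changes from the DKD change. The depletions were not equal. In A549 *TRA2A* RNA was at 9.56% of control after its single KD and 13.9% after DKD, and *TRA2B* at 9.68 and 16.3%. In NCI-H23 these were 6.54 and 20.5%, and 10.6 and 25.2%. After a single KD the RNA of the other paralog was at 118 to 130% of control in A549 and 148 to 149% in NCI-H23. In A549 this difference was called for 11 members, 4 above and 7 below 0, or 27.5% against 14.7% of all genes (5.84% above and 8.89% below). With TPM as deposited, where the median of all genes was 0.256 rather than -0.05, and after quantile normalization, 4 lay above and 2 below, and with length and GC correction 3 above and 9 below. The count was 15 without Control KD replicate 3, where 22.2% of all genes were called. It was 6 or 7 when replicate 1 or 2 of *TRA2A* KD, *TRA2B* KD or DKD was left out, where 9.17 to 11.5% of all genes were called. *DDX10* changed by -0.01, -0.00 and 1.12 after *TRA2A* KD, *TRA2B* KD and DKD, which left a difference of 1.14 ± 0.18 (SE, adjusted p = 0.00224). *UBTF* changed by 0.28, -0.05 and -0.88, a difference of -1.11 ± 0.13 (SE, adjusted p = 0.000373). *RRS1* was at 0.35, 0.29 and -0.40, and none of these changes passed the test, although their difference did (-1.04 ± 0.26 SE, adjusted p = 0.0237). In A549 the difference for *MYC* was 0.73 ± 0.22 (SE, adjusted p = 0.0464), and it no longer passed when any 1 library other than Control KD replicate 3 was left out (adjusted p from 0.0637 to 0.103). *NCL* gave -0.62 ± 0.14 (SE, adjusted p = 0.0131) and *BOP1* -0.59 ± 0.13 (SE, adjusted p = 0.0128). Neither of these 2 passed with TPM as deposited (adjusted p = 0.243 for *NCL* and 0.251 for *BOP1*) or after quantile normalization (0.992 and 0.272), and after length and GC correction *BOP1* did not pass (0.405).

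In NCI-H23 the difference was called for 19 members and lay below 0 for all 19, or 47.5% against 21% of all genes (12.8% below 0). With TPM as deposited it was called for 13, all below 0, and after quantile normalization for 11, with 1 above and 10 below 0. *GAR1*, a core protein of the box H/ACA snoRNP, changed by 0.20, 0.41 and -0.18 after *TRA2A* KD, *TRA2B* KD and DKD, and the difference was -0.79 ± 0.15 (SE, adjusted p = 0.00401). *MYC* changed by 0.09, 0.20 and -0.28, with a difference of -0.57 ± 0.09 (SE, adjusted p = 0.00131). *RRS1* (-0.72 ± 0.10 SE, adjusted p = 0.000641) and *NOP16* (-0.65 ± 0.18 SE, adjusted p = 0.0276) followed. *NIP7*, a late factor of the large subunit, gave -0.61 ± 0.09 (SE, adjusted p = 0.0013), and *MRTO4* -0.58 ± 0.09 (SE, adjusted p = 0.00122). Without *TRA2B* KD replicate 2 of NCI-H23 the count was 12 rather than 19. *MYC* was thus above the sum of the single KDs in A549 and below it in NCI-H23, and the lines were not tested against each other.

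In LN229, *TRA2A* KO came with small upward estimates nearly throughout the 40 genes. Of the members, 6 rose and none fell, or 15% called against 3.68% of all genes (1.86% higher), and 39 of 40 estimates were above 0 (9359 of 18490 for all genes), with medians of 0.26 and 0.00. *WDR43*, a processome protein, held 63.5, 60.1 and 75.5 TPM against 45.3, 51.2 and 49.9 TPM (0.45 ± 0.09 SE, adjusted p = 0.0182). *POLR1A*, the largest subunit of RNA polymerase I, held 26.3, 28.2 and 31.5 TPM against 20.8, 21.00 and 25.1 TPM (0.38 ± 0.09 SE, adjusted p = 0.036). *DDX21*, a nucleolar helicase, held 90.5, 94.6 and 106.8 TPM against 68.3, 80.6 and 82.6 TPM (0.35 ± 0.09 SE, adjusted p = 0.0491). In each of these the lowest library was replicate 1 of the Luc Control KO. *WDR75*, a partner of *WDR43*, held 50.7, 57.6 and 58.6 TPM against 42.7, 45.3 and 46.1 TPM (0.33 ± 0.08 SE, adjusted p = 0.0481), *GNL3*, which encodes nucleostemin, 153.0, 155.1 and 167.8 TPM against 121.8, 136.4 and 127.6 TPM (0.32 ± 0.08 SE, adjusted p = 0.0491), and the helicase gene *DDX18* 84.03, 78.6 and 85.9 TPM against 64.9, 68.5 and 72.4 TPM (0.29 ± 0.07 SE, adjusted p = 0.0349). Summed over the 40 genes, Luc Control KO replicate 1 held 3936 TPM and the other Luc controls 4625 and 4745 TPM, and without it none of the 6 calls remained. The count was 0 without *TRA2A* KO replicate 3 also, 1 without *TRA2A* KO replicate 2, and 3 without *TRA2A* KO replicate 1 or Luc Control KO replicate 3. Replicate 1 of the TRA2B-OE Control KO was the lowest of its group too, at 4005 TPM. The same held for replicate 1 of the Luc *TRA2A* KO (5006 TPM), Luc *TRA2B* KO (3875 TPM) and TRA2B-OE *TRA2A* KO (5199 TPM). Without replicate 1 of every LN229 group, a setting added after seeing the data, 7 members rose after *TRA2A* KO and none fell, where 7.29% of all genes were called.

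In TRA2B-OE cells of LN229, which have their own control, *TRA2A* KO raised 8 members and lowered none, or 20% against 6.07% of all genes (2.43% higher), with a median of 0.25. Apart from *MYC*, *WDR43* held 77.96, 73.5 and 75.01 TPM against 55.9, 57.4 and 48.1 TPM (0.47 ± 0.09 SE, adjusted p = 0.0106). *GNL3* held 177.5, 196.3 and 190.6 TPM against 134.6, 149.4 and 155.7 TPM (0.34 ± 0.08 SE, adjusted p = 0.0308), and *DDX21* 104.9, 103.6 and 98.2 TPM against 72.8, 84.6 and 83.1 TPM (0.33 ± 0.09 SE, adjusted p = 0.048). These 3 genes were also called in the Luc cells. *POLR1B* held 76.8, 81.3 and 73.04 TPM against 56.96, 64.1 and 60.4 TPM (0.33 ± 0.08 SE, adjusted p = 0.0392) and *RRP12* 67.96, 74.4 and 72.99 TPM against 52.6, 58.4 and 58.8 TPM (0.32 ± 0.08 SE, adjusted p = 0.0414), while *NOP2*, an RNA methyltransferase of the large subunit, and *DDX18* rose by 0.31 and 0.26. Leaving out single libraries gave 1 to 7 calls, with 1 call without TRA2B-OE *TRA2A* KO replicate 2 or 3, 2 (1 higher and 1 lower) without TRA2B-OE Control KO replicate 1, 3 without its replicate 2 and 5 without TRA2B-OE *TRA2A* KO replicate 1. The difference between the responses in TRA2B-OE and Luc cells was called for none of the 40 (smallest adjusted p = 0.85, and 0 of all genes, 0%), and TRA2B-OE itself moved no member past the test against 1.03% of all genes.

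*TRA2B* KO in LN229 gave estimates on the other side of 0. None of the 40 passed the test, where 0.568% of all genes did, yet 37 of 40 estimates were below 0 with a median of -0.21 against 0.01 for all genes. The scaled libraries of 19 members lay wholly below the control, 19 of 40 against 24.2% of all genes that did not overlap in either direction. Below *MYC*, the lowest estimates were those of *BOP1*, with 44.4, 50.9 and 51.3 TPM against 51.6, 71.9 and 70.4 TPM (-0.43 ± 0.16 SE, adjusted p = 0.139), and *MRTO4*, with 34.6, 36.9 and 32.9 TPM against 34.5, 55.4 and 49.1 TPM (-0.43 ± 0.20 SE, adjusted p = 0.22), neither of which passed. Without Luc Control KO replicate 1, the library with the lowest summed level, 16 members fell, and the share of all genes called rose with them to 20.8%. The same control library entered the comparison with *TRA2A* KO, and leaving it out ended the calls there.

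In LN319, *TRA2A* KO raised 11 members and lowered none, or 27.5% against 14.3% of all genes (6.82% higher), with a median of 0.13. That all calls lay above 0 depended on the scaling, since with TPM as deposited 7 rose and 2 fell and without mitochondrial genes 10 rose and 2 fell. After *MYC*, the largest change was in *RRP9*, the protein specific to the U3 snoRNP, which held 31.8, 30.5 and 31.9 TPM against 27.9, 25.04 and 26.2 TPM (0.29 ± 0.07 SE, adjusted p = 0.0114). *DDX21* held 63.6, 60.7 and 64.1 TPM against 50.2, 53.6 and 55.7 TPM (0.28 ± 0.07 SE, adjusted p = 0.0141), and *NOP14*, a processome protein, 27.9, 27.5 and 28.3 TPM against 23.1, 23.8 and 24.3 TPM (0.27 ± 0.06 SE, adjusted p = 0.00692). Each KO library exceeded each control library for these 3 genes as scaled, as the choice of genes to describe required. *MYBBP1A* held 92.3, 90.8 and 82.6 TPM against 80.00, 76.4 and 70.4 TPM (0.27 ± 0.06 SE, adjusted p = 0.0127) and *BYSL* 46.2, 46.7 and 45.2 TPM against 40.8, 41.8 and 37.9 TPM (0.24 ± 0.05 SE, adjusted p = 0.0121). The other calls were *NOP56*, *BOP1*, *NOP2*, *GNL3* and *RRS1*, between 0.19 and 0.23. *DDX21* and *GNL3* were called higher in LN229 as well. The count was 6 without Luc Control KO replicate 2 and 7 without *TRA2A* KO replicate 3.

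In TRA2B-OE cells of LN319 the *TRA2A* KO raised 7 members and lowered none, or 17.5% against 2.77% of all genes (1.48% higher), and 38 of 40 estimates were above 0 (median 0.18). *NOP16* held 63.95, 60.5 and 63.95 TPM against 49.2, 54.5 and 50.8 TPM (0.34 ± 0.07 SE, adjusted p = 0.0266), *NOP2* 86.8, 87.01 and 76.6 TPM against 75.1, 74.3 and 62.5 TPM (0.30 ± 0.05 SE, adjusted p = 0.0161) and *DDX21* 57.3, 58.4 and 56.7 TPM against 50.3, 52.3 and 44.5 TPM (0.29 ± 0.07 SE, adjusted p = 0.0383). *NOP56*, a core box C/D protein and host of snoRNAs in its introns, held 221.6, 223.4 and 215.7 TPM against 201.8, 187.2 and 180.9 TPM (0.27 ± 0.05 SE, adjusted p = 0.0219), and *BOP1* 75.02, 74.1 and 69.5 TPM against 66.99, 65.2 and 61.3 TPM (0.23 ± 0.06 SE, adjusted p = 0.0466). All 3 KO libraries were above the control libraries for these genes as scaled, which was a condition of their choice. Leaving out any 1 of the 6 libraries left 1 to 4 calls, with 1 call without TRA2B-OE Control KO replicate 3 or *TRA2A* KO replicate 1 or 2. *DDX21*, *MYC* and *NOP2* rose after *TRA2A* KO in the TRA2B-OE cells of both glioma lines. The responses in TRA2B-OE and Luc cells of LN319 differed for none of the 40 (smallest adjusted p = 0.45), against 0.0207% of all genes. For *MYC* the difference was -0.03 ± 0.10 (SE, adjusted p = 0.967) with a 95% interval of -0.24 to 0.18.

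TRA2B-OE on its own lowered 5 members in LN319 and raised none, or 12.5% against 4.31% of all genes (2.16% lower), with 34 of 40 estimates below 0 and a median of -0.17 against -0.02. *MRTO4* held 71.7, 78.1 and 73.03 TPM against 85.5, 89.7 and 90.8 TPM (-0.34 ± 0.07 SE, adjusted p = 0.0172) and *RRS1* 29.2, 29.04 and 26.7 TPM against 35.3, 31.96 and 29.97 TPM (-0.28 ± 0.06 SE, adjusted p = 0.0247). *BOP1* held 66.99, 65.2 and 61.3 TPM against 75.2, 70.9 and 71.6 TPM (-0.26 ± 0.06 SE, adjusted p = 0.0279). These libraries were all below the Luc control as scaled. *NOLC1* held 79.2, 80.7 and 79.2 TPM against 87.1, 86.3 and 93.2 TPM (-0.24 ± 0.06 SE, adjusted p = 0.0378) and *UBTF* 110.0, 114.5 and 112.3 TPM against 121.9, 125.4 and 116.8 TPM (-0.20 ± 0.05 SE, adjusted p = 0.0333). No call remained without TRA2B-OE Control KO replicate 1, and the count was 1 without its replicate 2 or without Luc Control KO replicate 1 or 3, and 8 without TRA2B-OE Control KO replicate 3.

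*TRA2B* KO in LN319 lowered more of the 40 genes than any other comparison with a control. Of the members 24 fell, 2 rose and 14 did not pass, or 65% called against 42.6% of all genes (24% lower and 18.6% higher), and the median was -0.30 against 0.02. After quantile normalization 20 fell and 6 rose, and with TPM as deposited, where the median of all genes was 0.124, 20 fell and 4 rose. *NHP2* and *NOP10*, core proteins of the box H/ACA snoRNP and of telomerase, were both among the 6 largest changes. *NHP2* held 119.4, 115.6 and 125.5 TPM against 196.7, 192.5 and 188.9 TPM (-0.79 ± 0.12 SE, adjusted p = 0.000324), and *NOP10* 97.1, 100.8 and 100.1 TPM against 136.5, 137.5 and 142.2 TPM (-0.59 ± 0.10 SE, adjusted p = 0.00057). *FBL*, the methyltransferase fibrillarin, held 174.1, 176.8 and 188.6 TPM against 291.2, 259.9 and 289.2 TPM (-0.75 ± 0.13 SE, adjusted p = 0.000644). Every KO library of these genes was below the control range, again a condition of their choice. *NPM1* held 392.5, 374.6 and 370.6 TPM against 585.4, 519.4 and 601.5 TPM (-0.69 ± 0.11 SE, adjusted p = 0.000462), *MRTO4* 55.5, 66.3 and 62.3 TPM against 85.5, 89.7 and 90.8 TPM (-0.64 ± 0.07 SE, adjusted p = 2.84e-05) and *RRS1* 22.4, 22.99 and 23.5 TPM against 35.3, 31.96 and 29.97 TPM (-0.60 ± 0.06 SE, adjusted p = 2.32e-05). *NPM1*, *NCL* and *NHP2* have processed pseudogenes, so how pseudo-alignment shared their reads is uncertain.

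The falls in LN319 covered nearly every step. Lower were 3 of 4 box H/ACA proteins, 4 of 7 processome proteins, 3 of 4 small-subunit maturation factors, 8 of 11 large-subunit factors and 4 of 5 nucleolar organisers and helicases. None of the 5 RNA polymerase I genes passed, with estimates from -0.22 to 0.11. The box C/D proteins parted, as *FBL* and *NOP58* fell and *NOP56* rose by 0.17, with 249.3, 241.0 and 243.2 TPM after KO and 213.0, 194.7 and 196.1 TPM in the control. Mitochondrially encoded RNA took 18.3 to 20.6% of TPM in the *TRA2B* KO libraries and 12.1 to 12.8% in the Luc controls, and with these genes left out the counts were again 2 higher and 24 lower. Summed over the 40 genes, *TRA2B* KO held 3021 ± 17 TPM and the control 3568 ± 64 TPM (mean ± SD, n = 3).

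**Figure D4:**
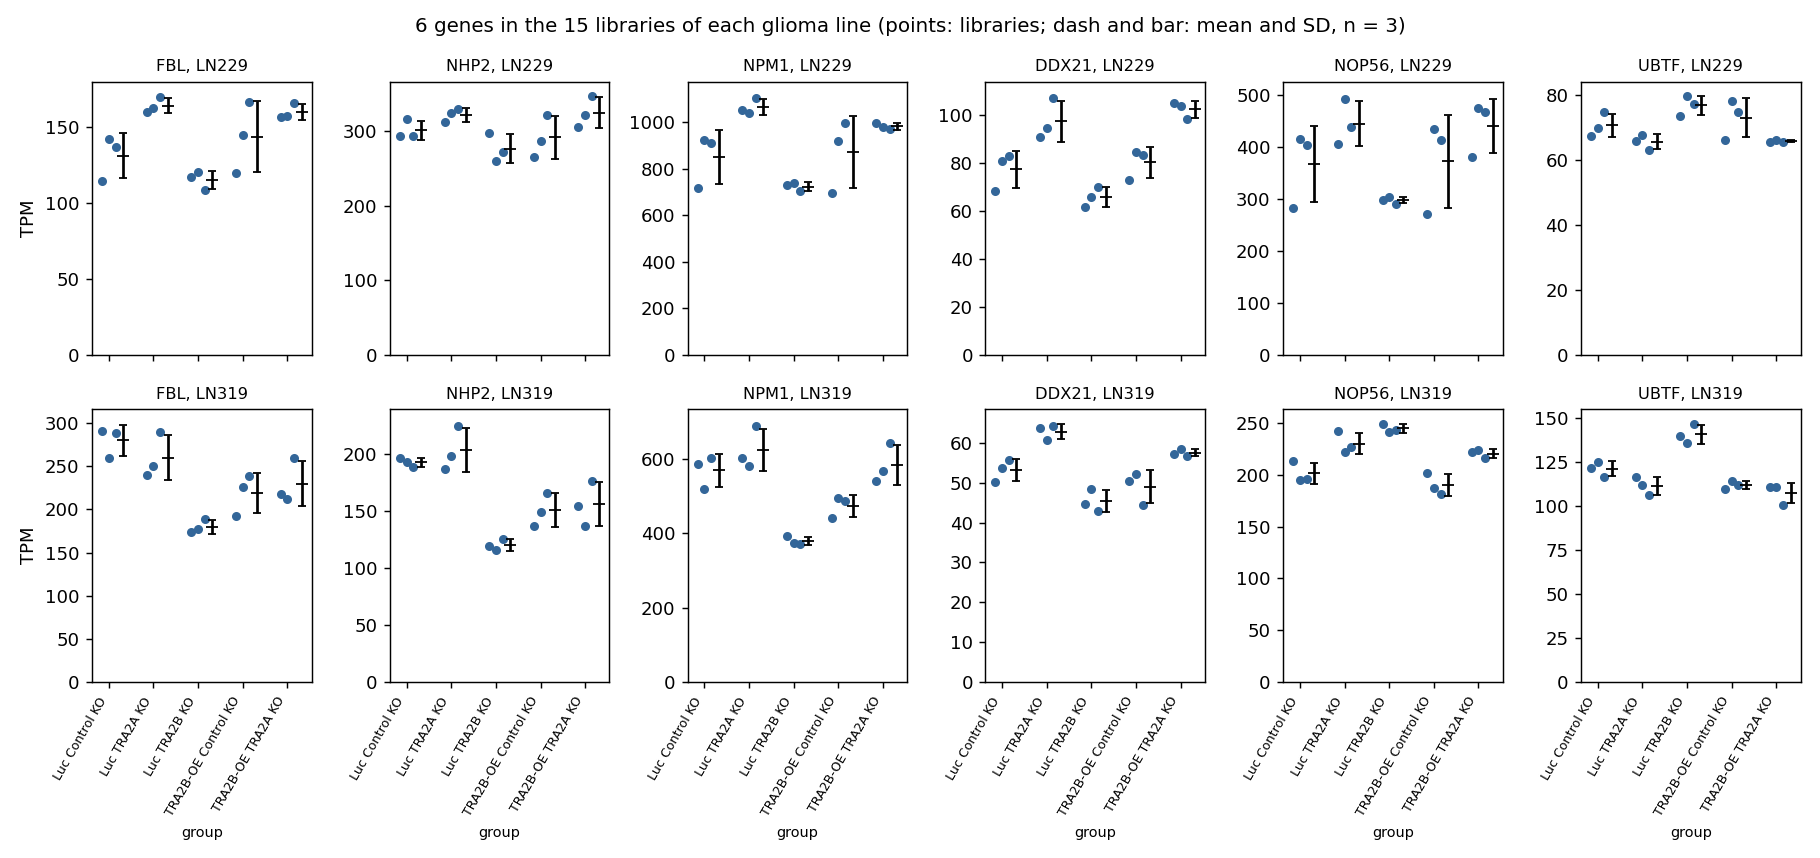
*FBL*, *NHP2*, *NPM1*, *DDX21*, *NOP56* and *UBTF* in TPM as deposited in each library of LN229 and LN319; points are libraries, dashes with bars are group means ± SD (n = 3), and every axis starts at 0. In LN319 the *FBL*, *NHP2* and *NPM1* points after *TRA2B* KO lie below those of every other group, while *NOP56* and *UBTF* points lie above the Luc control.

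The plot of these genes by library also shows the *TRA2A* KO libraries of Luc cells above the *TRA2B* KO libraries in both lines for *FBL*, *NHP2*, *NPM1* and *DDX21*, whereas *UBTF* in both lines and *NOP56* in LN319 lie the other way as deposited. After scaling the *NOP56* difference in LN319 was -0.06. The 2 knockouts in Luc cells were therefore compared directly, a comparison chosen after the data were seen. The difference of means takes in no control library and so not the low control replicate of LN229. The adjusted p-values and calls still draw on the control libraries, through the scaling of the line and the common estimate of the spread. In LN229, 34 members were lower after *TRA2B* KO than after *TRA2A* KO and none higher, or 85% against 34.1% of all genes (18% lower), with medians of -0.45 and 0.00. In LN319, 31 were lower and 1, *UBTF*, was higher by 0.19, or 80% against 47.2% (26.1% lower), with medians of -0.34 and 0.02. With TPM as deposited, where the median of all genes in LN319 was 0.162, 21 members were lower and 2 higher. Of the members lower in LN229, 27 were lower in LN319 (79.4% of 34 and 87.1% of 31). The same sharing over all genes was not counted. Leaving out single libraries left 27 to 32 calls for LN229 and 26 to 31 for LN319. When the spread was estimated from the 2 knockout groups alone, 34 members were lower and 1 higher for LN229. For LN319, 32 were then lower and 1 higher.

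In LN229 the largest of these differences was in *MYC*, at -1.28 ± 0.17 (SE, adjusted p = 0.00046). *MRTO4* held 34.6, 36.9 and 32.9 TPM after *TRA2B* KO and 54.5, 58.5 and 59.6 TPM after *TRA2A* KO (-0.78 ± 0.20 SE, adjusted p = 0.0106). *NOP56* held 299.5, 303.8 and 291.8 TPM against 406.3, 492.8 and 438.8 TPM (-0.64 ± 0.19 SE, adjusted p = 0.0202) and *WDR43* 41.5, 45.5 and 45.5 TPM against 63.5, 60.1 and 75.5 TPM (-0.64 ± 0.09 SE, adjusted p = 0.000546). The libraries of both groups did not overlap for any of them, by the rule that chose them. *DDX21* held 61.6, 65.6 and 69.8 TPM against 90.5, 94.6 and 106.8 TPM (-0.62 ± 0.09 SE, adjusted p = 0.000677) and *DKC1* 65.8, 68.8 and 72.1 TPM against 95.5, 98.4 and 112.5 TPM (-0.62 ± 0.12 SE, adjusted p = 0.00221). All 7 processome proteins, all 3 box C/D proteins, all 5 nucleolar organisers and helicases and 10 of 11 large-subunit factors were lower.

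In LN319 *NHP2* held 119.4, 115.6 and 125.5 TPM after *TRA2B* KO and 186.9, 198.5 and 224.3 TPM after *TRA2A* KO (-0.90 ± 0.12 SE, adjusted p = 7.53e-05). *NPM1* held 392.5, 374.6 and 370.6 TPM against 601.0, 580.4 and 688.3 TPM (-0.86 ± 0.11 SE, adjusted p = 6.01e-05), and *RRS1* 22.4, 22.99 and 23.5 TPM against 37.7, 36.9 and 33.3 TPM (-0.79 ± 0.06 SE, adjusted p = 1.51e-06). These groups again did not overlap, by the rule that chose the genes. *BYSL* held 29.4, 30.03 and 32.3 TPM against 46.2, 46.7 and 45.2 TPM (-0.74 ± 0.05 SE, adjusted p = 1.41e-06), *NIP7* 15.5, 14.6 and 14.1 TPM against 22.3, 21.7 and 21.8 TPM (-0.72 ± 0.07 SE, adjusted p = 6.78e-06) and *NOP10* 97.1, 100.8 and 100.1 TPM against 139.4, 139.1 and 154.3 TPM (-0.68 ± 0.10 SE, adjusted p = 0.000129). All 11 large-subunit factors and all 5 nucleolar organisers and helicases were lower, and *MYC* changed by -0.27 ± 0.07 (SE, adjusted p = 0.00584), a call that did not hold with TPM as deposited (-0.12, adjusted p = 0.161) or after quantile normalization (-0.13, adjusted p = 0.128).

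**Figure D5:**
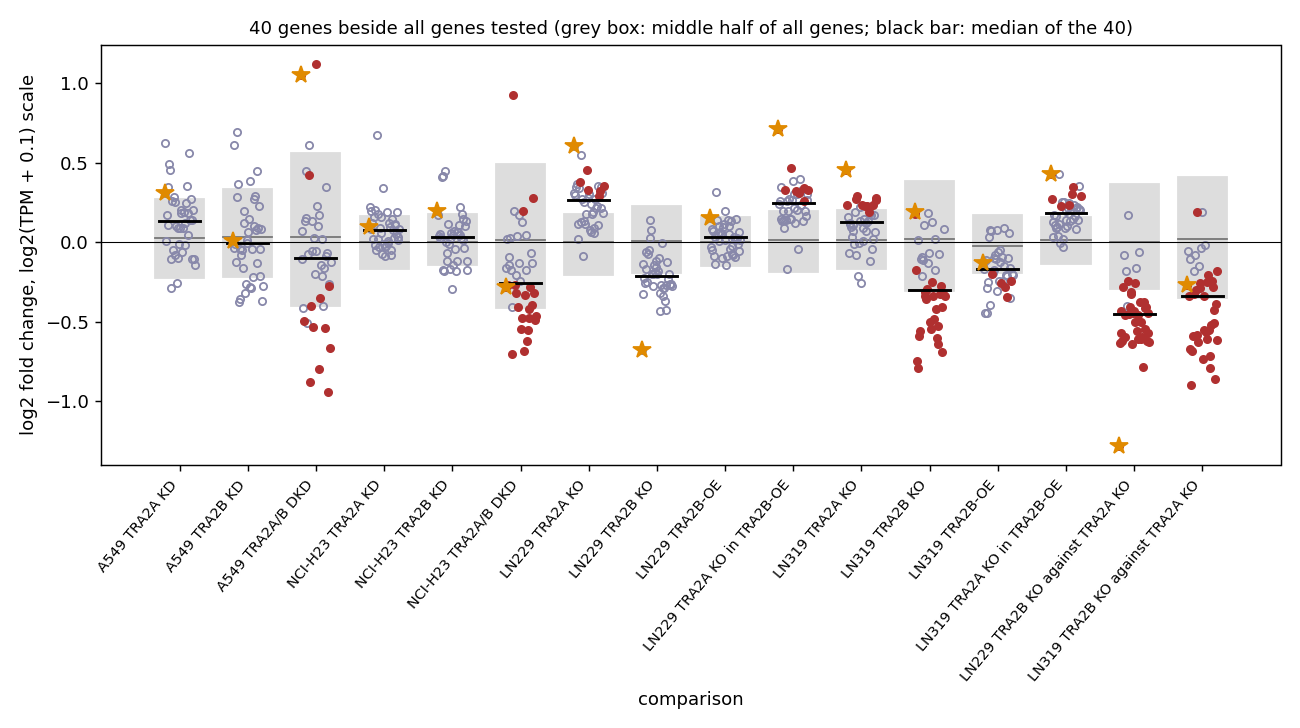
Log2 fold changes of the 40 genes in 16 comparisons (14 with a control and the 2 comparisons of the knockouts); filled points are called, open points are not, stars mark *MYC* whether called or not, black bars the median of the 40, and grey boxes and lines the middle 50% and the median of all tested genes. In LN229 the black bar lies at 0.26 after *TRA2A* KO, -0.21 after *TRA2B* KO and -0.45 between both.

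The plot of the 40 genes beside all genes shows how these changes sit within each comparison. The bars of the 40 lie above the grey boxes after *TRA2A* KO in LN229 and in the TRA2B-OE cells of LN319, and below them after *TRA2B* KO in LN229 and between the knockouts of LN229, whereas in the DKDs and after *TRA2B* KO in LN319 the grey boxes are wide and the bars stay within them.

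Lists of related genes were counted in the same comparisons. These lists and those of the paragraphs that follow were chosen with earlier results of these data known, so their shares are description only. Genes named from a list are called ones of largest change. Of 98 other ribosome biogenesis genes, 10 rose and 23 fell (median -0.11) in A549 DKD, 12 rose and 41 fell (median -0.20) in NCI-H23 DKD and 6 rose and 56 fell (median -0.20) in LN319 *TRA2B* KO. The shares called were 33.7, 54.1 and 63.3%, against 30.6, 43.2 and 42.6% of all genes, so the list was near the background in A549. Among them *UTP18*, a processome protein, changed by -1.12 ± 0.10 (SE, adjusted p = 2.19e-05) in A549, and *NOC3L*, a pre-60S factor, by -1.26 ± 0.10 (SE, adjusted p = 2.6e-06) in NCI-H23. Of other genes listed as induced by MYC, 36, 37 and 36 were tested in the same order, of which 3 rose and 19 fell (median -0.44), 5 rose and 25 fell (median -0.38) and 2 rose and 30 fell (median -0.48), or 61.1, 81.1 and 88.9% called. *TERT*, the telomerase reverse transcriptase, changed by -2.68 ± 0.23 (SE, adjusted p = 1.71e-05) in A549 and -2.32 ± 0.32 (SE, adjusted p = 0.000184) in NCI-H23 after DKD, although *MYC* itself lay on different sides of 0. In LN319 *LDHA*, which makes lactate, changed by -0.94 ± 0.12 (SE, adjusted p = 0.000112) after *TRA2B* KO.

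The MYC network, the partners and competitors of MYC, went both ways after DKD. Its members *MXI1* and *MXD1*, which compete with MYC for MAX, changed by 2.86 ± 0.47 (SE, adjusted p = 0.00102) and 2.34 ± 0.21 (SE, adjusted p = 2.12e-05) in A549 and by 1.4 ± 0.14 (SE, adjusted p = 1.95e-05) and 1.91 ± 0.29 (SE, adjusted p = 0.00038) in NCI-H23. Of the whole list 4 of 20 tested genes rose and 5 fell in A549 (median -0.18), and 6 of 21 rose and 5 fell in NCI-H23 (median -0.01). These are 45 and 52.4% called, against 30.6 and 43.2% of all genes. Of genes listed as repressed by MYC, 6 of 11 rose and 1 fell (median 0.70) in A549 and 5 of 12 rose and 3 fell (median 0.14) in NCI-H23. The shares called were 63.6 and 66.7%, against the same shares of all genes. *CDKN1A*, the cell cycle inhibitor p21, changed by 1.89 ± 0.11 (SE, adjusted p = 1.36e-06) in A549 and 1.72 ± 0.07 (SE, adjusted p = 5.27e-08) in NCI-H23, and *GADD45A*, a DNA damage gene, by 2.92 ± 0.28 (SE, adjusted p = 3.23e-05) in A549.

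Cytosolic ribosomal protein genes, whose products the 40 genes assemble, were counted beside them. Of 77, 1 rose and 0 fell (median 0.01) in A549 DKD and 5 rose and 15 fell (median -0.02) in NCI-H23 DKD. These are 1.3 and 26% called, below the 30.6 and 43.2% of all genes. After *TRA2B* KO in LN319, 74 of 77 fell with a median of -0.78, where 24% of all genes fell, led by *RPS23* at -1.01 ± 0.15 (SE, adjusted p = 0.000287). In the comparison of *TRA2B* KO with *TRA2A* KO 75 of 77 were lower in LN319 and 21 in LN229, where 26.1 and 18% of all genes were lower. The ribosomal protein genes share many near-identical pseudogenes, which makes their levels uncertain. After *TRA2A* KO, of the other ribosome biogenesis genes 3 of 98 rose and 0 fell (median 0.18) in LN229, or 3.06% against 3.68% of all genes, and 16 rose and 1 fell (median 0.10), or 17.3% against 14.3%, in LN319, with *RRP15* at 0.95 ± 0.25 (SE, adjusted p = 0.0254) in LN319.

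Members with and without a CACGTG match near the start were set side by side as a description. After *TRA2B* KO in LN319, 12 of 15 members with a match and 8 of 18 without were called (medians -0.34 and -0.14), against 42.6% of all genes. Between the knockouts of LN319 it was 15 of 15 and 11 of 18 (medians -0.58 and -0.25), against 47.2%. In NCI-H23 DKD it was 9 of 15 and 8 of 18 (medians -0.32 and -0.15), against 43.2%. In A549 DKD it was 5 of 15 and 5 of 18 (medians -0.07 and -0.11), against 30.6%. Between the knockouts of LN229 it was 13 of 15 and 14 of 18 (medians -0.46 and -0.41), against 34.1%. After *TRA2A* KO in Luc cells of LN319 it was 7 of 15 and 1 of 18 (medians 0.13 and 0.11), against 14.3%. The difference from additivity was called for 1 of 15 and 5 of 18 in A549, against 14.7%, and for 9 of 15 and 6 of 18 in NCI-H23, against 21%. In TRA2B-OE cells of LN229 it was 4 of 15 and 1 of 18 after *TRA2A* KO, against 6.07%. Counts were 3 of 15 and 2 of 18 after *TRA2A* KO in Luc cells of LN229 (against 3.68%) and in TRA2B-OE cells of LN319 (against 2.77%). They were 1 of 15 and 1 of 18 for TRA2B-OE in LN319 (against 4.31%), and none of these members was called elsewhere. The windows shown for *FBL*, *BYSL* and *RRP9* belong to genes that fell after *TRA2B* KO in LN319, while *WDR43*, with the same letters, was at -0.13 ± 0.10 (SE, adjusted p = 0.303).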

How the data were processed

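RNA was measured in 54 libraries in 18 groups of 3, made by paired-end sequencing of poly(A)-selected, strand-specific libraries. TPM values per gene were deposited by the authors in 1 table per cell line; the submitters' processing notes name kallisto 0.48.0 and STAR 2.7.3, and the methods name Gencode release 34. How transcripts were summed to genes is not given in the sources used here. TPM keeps no sequencing depth, so no counting error could be given, and gene-level TPM can shift with the isoforms used, which bears on depletion of splicing factors.

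Within each line, genes that reached 1 TPM in 4 or more libraries were kept, TPM were scaled by TMM without weights (trims of 30% of ratios and 5% of abundances), and log2(TPM + 0.1) was fitted with limma 3.58.1 (R 4.3.3; 1 mean per group, mean-variance trend, two-sided tests). Fold changes are on this scale and understate the change of low genes. P-values were adjusted by Benjamini-Hochberg over all genes tested, and a gene was called at adjusted p under 0.05. The authors' voom fit needs counts, so the log-scale fit stood in for it. Fits were checked on simulated data. Library values in the text are TPM as deposited, and SD are over the 3 libraries of a group. SE come from the limma fit, in which all groups of a line share a common estimate of the spread, so they do not measure the spread of the 3 libraries shown.

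Members and lists were chosen with earlier results of these data known. Described in every library were *MYC* and, per comparison, up to 6 called members of largest absolute change whose groups did not overlap; of the surrounding lists, up to 3 called genes of largest change could be named. Alternatives were other pseudocounts, filters, scalings (TPM as deposited, quantile), a length and GC correction (81.8 to 86.4% of genes matched), fits on only the groups compared, a replicate block, and leaving out mitochondrial genes or single libraries. The comparison of *TRA2B* KO with *TRA2A* KO and the fit without replicate 1 of every LN229 group were added after the data were seen. Promoter sequences are from RefSeq (GRCh38.p14). Figures were drawn with matplotlib 3.10.9 in Python 3.11.15 with pandas 2.3.3.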

Additional observations from a re-analysis of the deposited data

Results flagged for a closer look

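The DKD change differed from the sum of the single KD changes for 11 members in A549 and for 19 in NCI-H23 (limma, adjusted p under 0.05 for the difference itself). In both lines the DKD left more of each target RNA than its single KD did. On the log2 scale the largest differences in A549 were 1.14 for *DDX10*, -1.11 for *UBTF*, -1.04 for *RRS1*, 0.73 for *MYC*, -0.62 for *NCL* and -0.59 for *BOP1*. That of *MYC* no longer passed when any library other than Control KD replicate 3 was left out. Those of *NCL* and *BOP1* did not pass with TPM as deposited or after quantile normalization. In NCI-H23 they were -0.79 for *GAR1*, -0.72 for *RRS1*, -0.65 for *NOP16*, -0.61 for *NIP7*, -0.58 for *MRTO4* and -0.57 for *MYC*.

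Some members had estimates on opposite sides of 0 in the 2 lines of a pair, with no overlap between a perturbed group and its control after scaling in either line; these differences between lines were not tested. After DKD *MYC* was at 1.05 in A549 and at -0.28 in NCI-H23, and both passed the test. The NCI-H23 call did not hold in limma fits with TPM as deposited (-0.13, adjusted p = 0.291) or after quantile normalization (-0.14, adjusted p = 0.0766). After *TRA2B* KO *MYC* was at -0.68 in LN229 and 0.19 in LN319, of which only the latter passed (adjusted p = 0.0739 and 0.0417), and *WDR75*, a processome gene, was at -0.12 and 0.18, neither of which passed (0.394 and 0.13). *DDX10* was at 0.28 in LN229 and -0.26 in LN319 after *TRA2A* KO, neither of which passed (0.237 and 0.0667), and at -0.43 and 0.19 for *TRA2B* KO against *TRA2A* KO, of which only the former passed (0.0225 and 0.092).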

How the results depend on the processing

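Counts of called members depended on the processing as follows. In A549 the count for the difference from additivity was 6 with TPM as deposited and 6 after quantile normalization (11 in the report), and in NCI-H23 11 after quantile normalization (19). *TRA2A* KO in LN229 (6) gave 2 with no filter, 0 with only the groups compared, 2 after length and GC correction and 3 without mitochondrial genes, and in TRA2B-OE cells (8) 1 with no filter and 1 with only the groups compared. In LN319 TRA2B-OE (5) gave 2 with no filter, 2 as deposited and 0 with only the groups compared, *TRA2A* KO in TRA2B-OE cells (7) 3, 3 and 0, and *TRA2A* KO in Luc cells (11) 3 with only the groups compared. A replicate block gave 12 in LN229 *TRA2A* KO, 6 in LN229 *TRA2B* KO and 12 in LN319 TRA2B-OE. It called 8.57, 7.01 and 9.96% of all genes there, against 3.68, 0.568 and 4.31% without it. Deviations of same-numbered libraries correlated from -0.154 to 0.212, the highest for replicate 1 of LN229 TRA2B-OE and its control. Replicate 1 also held the lowest summed level in every LN229 group, and the labels do not say what same-numbered libraries share. *TRA2B* KO in LN229 (0) gave 25 lower members without replicate 1 of every LN229 group, a setting added after seeing the data in which 29.9% of all genes were called. *TRA2A* KO gave 7 there, and in TRA2B-OE cells 8 higher and 1 lower. In A549 DKD, quantile normalization gave 4 higher and 8 lower. The causes were not tested, except that fewer libraries entered the fits on only the groups compared.

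Leaving out 1 library gave 9 to 20 calls in A549 DKD, 6 to 15 for its difference from additivity, 21 to 24 and 12 to 23 in NCI-H23, 0 to 6, 0 to 16 and 1 to 7 in LN229 (*TRA2A* KO, *TRA2B* KO, *TRA2A* KO in TRA2B-OE), 6 to 10, 23 to 26, 0 to 8 and 1 to 4 in LN319 (*TRA2A* KO, *TRA2B* KO, TRA2B-OE, *TRA2A* KO in TRA2B-OE), 27 to 32 and 26 to 31 between the knockouts of LN229 and LN319, and 0 to 0 elsewhere. *MYC* changed sign where it was never called: in A549 *TRA2B* KD (-0.081 as deposited, -0.0023 quantile, -0.037 after length and GC correction, -0.20 to 0.15 over left-out libraries), LN229 TRA2B-OE (-0.032, without Luc Control KO replicate 1, to 0.33), and, also over left-out libraries, the TRA2B-OE minus Luc differences of LN229 (-0.062 to 0.28) and LN319 (-0.090 to 0.035).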
